A study of Rattus norvegicus with 12 samples.

Results

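Endothelial cells line the blood vessels of the dorsal root ganglion, the cluster of sensory nerve cell bodies beside the spinal cord, and 10 genes that mark these cells are described here in rats given oxaliplatin, paclitaxel or vehicle. The members are Pecam1, Cdh5, Kdr, Flt1, Tek, Tie1, Cldn5, Vwf, Emcn and Egfl7. They were found by their gene symbol, each on 1 row in all 12 library tables, and make up 10 of the 20152 genes listed. All 10 passed the filter on low counts, which left 15809 genes to test. The libraries were made from frozen ganglia with all their cell types, and the labels name the molecule as total RNA and the libraries as mRNA.

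There were 4 libraries from rats injected intraperitoneally with oxaliplatin, a platinum compound, at 2.4 mg/kg in glucose solution. A further 4 came from rats injected by the same route with paclitaxel, a drug that stabilises microtubules, at 2.0 mg/kg in DMSO and saline, and 4 came from rats given a vehicle whose makeup is not given. Either drug was used to produce painful peripheral neuropathy. With 1 vehicle group for 2 solvents, the effect of a drug and that of its solvent cannot be told apart. Strain, sex, age, number of doses and time of sampling are not given in the sources used here. Nothing says that the replicates of a group came from separate animals, so the p-values rest on the spread between libraries of a group, which may be technical.

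Blood vessel endothelium is held together by junction proteins and senses growth factors through receptor tyrosine kinases. VEGF signals through Kdr, with Flt1 acting mainly as a receptor that binds VEGF without strong signalling, and the angiopoietins signal through Tek, with Tie1 as its partner receptor. In the dorsal root ganglion the capillaries around the cell bodies are known to be more permeable than those of the nerve trunk, which form part of the blood-nerve barrier. In bulk RNA a lower value for such genes can come, among other ways, from fewer endothelial cells or from less RNA per cell. Values relative to the library total also depend on the amount of RNA from other cells, and the counts cannot tell these apart.

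The total of the estimated counts was 17008728 to 17615736 in each library, and a single member had between 167 and 1550 of them. CPM, a gene's estimated count relative to the library total after TMM scaling, is used to compare 1 gene across libraries. FPKM, the deposited value scaled to gene length and library total, is used to compare genes. The 10 members together had 303 to 355 CPM in oxaliplatin, 215 to 247 CPM in paclitaxel and 211 to 330 CPM in vehicle libraries. Markers of sensory neurons, 16 genes that define the labelled tissue, summed to 15940 to 20890 CPM in oxaliplatin, 22800 to 32240 CPM in paclitaxel and 22420 to 25760 CPM in vehicle libraries.

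By FPKM the members kept nearly the same order in every group, with Cldn5 at the top and Kdr at the bottom. Cldn5, the tight junction protein claudin-5, averaged 29.4 ± 4.65 FPKM in oxaliplatin, 27.8 ± 0.98 in paclitaxel and 29.8 ± 4.09 in vehicle libraries (SD, n = 4 each), and its range lay above that of every other member in all 3 groups. Kdr, the main VEGF receptor, averaged 2.92 ± 0.203, 2.07 ± 0.339 and 2.39 ± 0.16 FPKM in oxaliplatin, paclitaxel and vehicle libraries, below the range of every other member in each group. In vehicle libraries the order between them was Emcn at 14.3 FPKM, Egfl7 at 10.7, Tie1 at 8.18, Pecam1 at 6.55, Cdh5 at 5.44, Vwf at 5.14, Flt1 at 4.85 and Tek at 4.11, and each neighbouring pair among these 8 overlapped. Egfl7 stood above Emcn in paclitaxel libraries, at 9.34 ± 0.85 against 9.14 ± 2.39 FPKM, and the 2 genes overlapped there. Cldn5 alone made up 26.3% of the summed FPKM of the members in oxaliplatin, 35.7% in paclitaxel and 32.6% in vehicle libraries.

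The DNA just before the gene is shown for 4 members, which were set by availability and not by their values. RefSeq's promoter table held 6 of the 10 members, and for these 4 part of the window lay outside the annotated gene of build GRCr8. They are Emcn, which differed most between the drugs, Cldn5, which did not move with the others, and the receptors Kdr and Tie1. Capitals mark GGAA or its reverse complement TTCC, the core bound by ETS factors such as Erg and Fli1, which are known to drive endothelial genes. Each stretch is on the gene's own strand, 5′ to 3′, and ends next to the annotated gene.
Emcn, chr2:228564289-228564444, + strand: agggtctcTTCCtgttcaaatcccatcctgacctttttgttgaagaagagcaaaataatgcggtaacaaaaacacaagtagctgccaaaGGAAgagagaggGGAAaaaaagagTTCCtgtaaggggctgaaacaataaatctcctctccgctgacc
Kdr, chr14:32571813-32572030, + strand: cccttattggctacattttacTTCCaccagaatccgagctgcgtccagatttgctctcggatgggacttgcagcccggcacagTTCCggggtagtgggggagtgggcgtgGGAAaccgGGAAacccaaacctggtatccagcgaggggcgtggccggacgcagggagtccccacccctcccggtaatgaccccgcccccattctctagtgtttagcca
Tie1, chr5:137305048-137305231, - strand: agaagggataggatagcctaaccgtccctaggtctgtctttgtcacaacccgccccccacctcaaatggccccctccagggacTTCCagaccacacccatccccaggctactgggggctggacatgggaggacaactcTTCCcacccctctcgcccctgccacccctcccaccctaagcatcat
Cldn5, chr11:95718599-95718848, - strand: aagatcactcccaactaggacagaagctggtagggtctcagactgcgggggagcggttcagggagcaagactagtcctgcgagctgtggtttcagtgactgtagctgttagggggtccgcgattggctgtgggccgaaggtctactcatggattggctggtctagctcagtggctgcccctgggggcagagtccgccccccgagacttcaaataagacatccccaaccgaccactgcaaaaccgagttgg
The core stood 4 times in 156 bases of Emcn, 4 times in 218 bases of Kdr and 2 times in 184 bases of Tie1. It stood 0 times in 250 bases of Cldn5. At those lengths 82.5%, 90.7%, 87.1% and 93.2% of 33469 windows in the table hold at least 1 copy on either strand, so a match is the usual state. The longer letters CCGGAA, which contain the core, stood once before Kdr, in the form of their reverse complement TTCCGG. Of windows of that length 10.1% hold a match on either strand. These matches describe the letters and say nothing of binding.

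Between the drugs the endothelial genes were higher after oxaliplatin. Here and below, a gene that rose between the drugs was higher after oxaliplatin than after paclitaxel, whatever its vehicle value. Kdr, Tek, Vwf and Emcn rose relative to paclitaxel, and the other 6 did not pass the test. That is 4 of 10 members called, against 11.3% of all genes tested in either direction and 6.6% called higher, at an adjusted p under 0.05 (edgeR, quasi-likelihood, with the Benjamini-Hochberg method over all genes tested). All 10 log2 fold changes were above 0, though that of Cldn5 was 0.01, and their median was 0.50, beside 0.00 for all genes tested. Among the genes called in all, 58.4% were higher after oxaliplatin, a share that was 83.6% with library totals in place of TMM scaling and 48.1% with DESeq2.

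**Figure D1:**
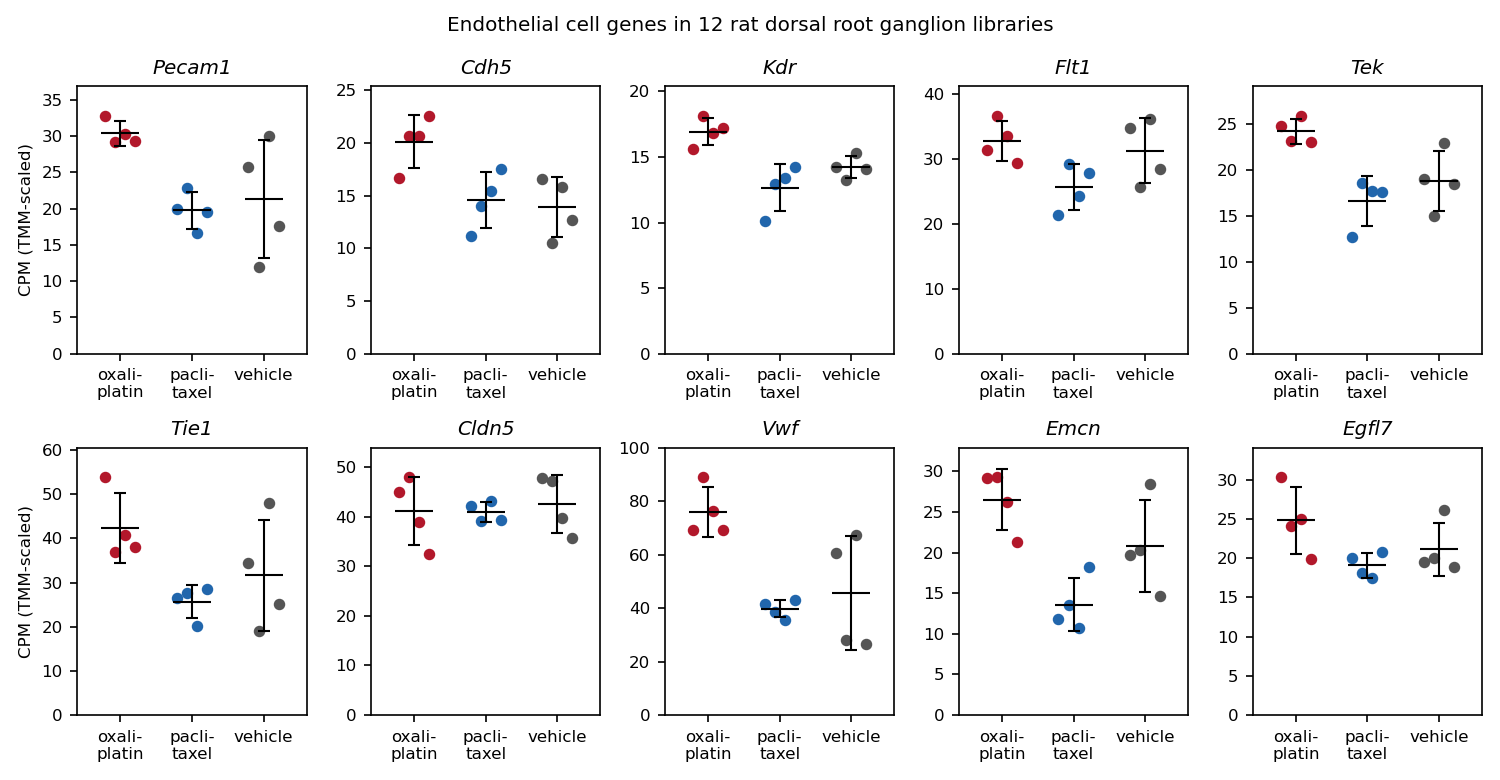
TMM-scaled CPM (vertical axes, each from 0) of the 10 endothelial cell genes in oxaliplatin, paclitaxel and vehicle libraries, with 1 point per library and bars for the mean and SD of 4. Vwf lies between 69.3 and 89.0 CPM in oxaliplatin and between 35.8 and 42.9 CPM in paclitaxel libraries, while Cldn5 overlaps in all 3 groups.

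Emcn, which encodes endomucin, a sialomucin on the surface of capillary and venous endothelium, showed the largest difference of the 10 between the drugs. It had 29.2, 29.3, 26.2 and 21.4 CPM in oxaliplatin libraries, 11.8, 13.6, 10.8 and 18.2 CPM in paclitaxel libraries and 19.8, 20.3, 28.5 and 14.7 CPM in vehicle libraries. Every oxaliplatin library was above every paclitaxel library, and the vehicle libraries spread across both. The difference of oxaliplatin minus paclitaxel was 0.96 ± 0.20 on the log2 scale (SE), or 1.95-fold, with an adjusted p of 0.0114.

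Vwf, which encodes von Willebrand factor, a clotting protein stored in endothelial cells and also made by megakaryocytes, had 69.3, 89.0, 76.4 and 69.4 CPM in oxaliplatin libraries. It had 41.7, 38.6, 35.8 and 42.9 CPM in paclitaxel libraries and 60.7, 28.1, 67.3 and 26.5 CPM in vehicle libraries. The oxaliplatin libraries were all above the other 8, the paclitaxel libraries lay close together, and the vehicle libraries fell into a high and a low pair. The difference between the drugs was 0.94 ± 0.26 on the log2 scale, or 1.91-fold, with an adjusted p of 0.0421.

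Among the receptors, Tek had 24.7, 23.2, 25.9 and 23.0 CPM in oxaliplatin, 12.6, 18.6, 17.6 and 17.6 CPM in paclitaxel and 19.0, 14.9, 22.9 and 18.4 CPM in vehicle libraries. Kdr had 15.6, 18.2, 16.8 and 17.2 CPM in oxaliplatin, 10.1, 12.9, 13.4 and 14.2 CPM in paclitaxel and 14.2, 13.3, 15.3 and 14.1 CPM in vehicle libraries. For both receptors every oxaliplatin library stood above all paclitaxel and all vehicle libraries. Tek rose by 0.54 ± 0.14 on the log2 scale relative to paclitaxel (1.45-fold, adjusted p = 0.0265) and Kdr by 0.42 ± 0.11 (1.34-fold, adjusted p = 0.0289). The estimated counts of Tek were not whole in all 12 libraries, so its reads may be shared with another gene and its value is uncertain.

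Tie1 and Flt1 did not pass the test as reported. Tie1 had 53.9, 36.9, 40.7 and 38.0 CPM in oxaliplatin, 26.4, 27.6, 20.1 and 28.6 CPM in paclitaxel and 34.4, 19.1, 48.1 and 25.1 CPM in vehicle libraries. Flt1 had 31.4, 36.7, 33.5 and 29.4 CPM in oxaliplatin, 21.4, 29.2, 24.3 and 27.8 CPM in paclitaxel and 34.8, 25.7, 36.2 and 28.4 CPM in vehicle libraries. Both were above paclitaxel in all 4 oxaliplatin libraries, and both overlapped with vehicle. The oxaliplatin minus paclitaxel difference was 0.72 ± 0.24 for Tie1 (adjusted p = 0.066) and 0.35 ± 0.13 for Flt1 (adjusted p = 0.0901), and the counts of Flt1 were not whole in 8 libraries, so its value is uncertain. Tie1 passed in 6 of 18 alternative settings, DESeq2 among them (adjusted p = 0.0218), and Flt1 in 1, so the receptors and their partners are not set apart by these calls. The FPKM ratio of Flt1 to Kdr was 1.79 ± 0.136 in oxaliplatin, 1.87 ± 0.191 in paclitaxel and 2.02 ± 0.234 in vehicle libraries, and that of Tie1 to Tek 2.07 ± 0.344, 1.86 ± 0.466 and 1.93 ± 0.457 in the same order. Within each receptor pair the groups overlapped in this ratio.

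Of the junction genes, Pecam1, an adhesion molecule between endothelial cells that is also carried by platelets and some leukocytes, had 32.8, 29.2, 30.3 and 29.3 CPM in oxaliplatin libraries. It had 19.9, 22.9, 16.6 and 19.6 CPM in paclitaxel libraries and 25.8, 11.9, 30.0 and 17.6 CPM in vehicle libraries. The drug groups did not overlap, and the vehicle libraries lay between 11.9 and 30.0 CPM, from below the paclitaxel libraries up to the lower oxaliplatin libraries. Its difference of oxaliplatin minus paclitaxel was 0.62 ± 0.21 (adjusted p = 0.0744). Cdh5, the adherens junction protein VE-cadherin, had 16.6, 20.6, 20.7 and 22.6 CPM in oxaliplatin, 11.2, 14.0, 15.5 and 17.5 CPM in paclitaxel and 16.6, 10.5, 15.8 and 12.7 CPM in vehicle libraries. Oxaliplatin 1 was below paclitaxel 4, so the drug groups overlapped, and the difference was 0.47 ± 0.16 (adjusted p = 0.076).

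Cldn5 differed little between the groups. It had 45.0, 48.0, 39.0 and 32.5 CPM in oxaliplatin, 42.2, 39.3, 43.2 and 39.3 CPM in paclitaxel and 47.8, 47.2, 39.7 and 35.7 CPM in vehicle libraries. No group stood apart. The difference of oxaliplatin minus paclitaxel was 0.01 ± 0.12 with a 95% interval of -0.26 to 0.27 (adjusted p = 0.983), so a rise as large as that of Kdr lay outside the interval. Egfl7, a protein secreted by endothelial cells into their matrix, had 30.3, 24.1, 25.0 and 19.9 CPM in oxaliplatin, 20.0, 18.1, 17.5 and 20.8 CPM in paclitaxel and 19.5, 20.1, 26.2 and 18.8 CPM in vehicle libraries. All oxaliplatin libraries but oxaliplatin 4 were above every paclitaxel library. The difference was 0.38 ± 0.14 (adjusted p = 0.0821), and its counts were not whole in all 12 libraries, so its value is uncertain.

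Without overlap between the drug groups there were 7 members, all higher after oxaliplatin, namely Pecam1, Kdr, Flt1, Tek, Tie1, Vwf and Emcn. Over all genes tested 9.17% were higher without overlap in this comparison. The number of called members depended on single libraries: it was 1 without paclitaxel 1, without paclitaxel 3 or without oxaliplatin 3, 2 without paclitaxel 2, oxaliplatin 1 or oxaliplatin 2, and 4 without paclitaxel 4 or oxaliplatin 4. The calls over all genes moved as well, from 1788 to 810, 679 and 601 without paclitaxel 1, 2 and 3. They were 1230, 901 and 571 without oxaliplatin 1, 2 and 3, 3463 without paclitaxel 4 and 2252 without oxaliplatin 4. Emcn kept its call in all 18 alternative settings, with an adjusted p of at most 0.0419. Vwf lost it whichever library was left out (adjusted p up to 0.115), Kdr in 5 of 8 such fits (up to 0.0778) and Tek in 4 of 8 (up to 0.0824), while their folds stayed within 1.5 times of those given.

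**Figure D2:**
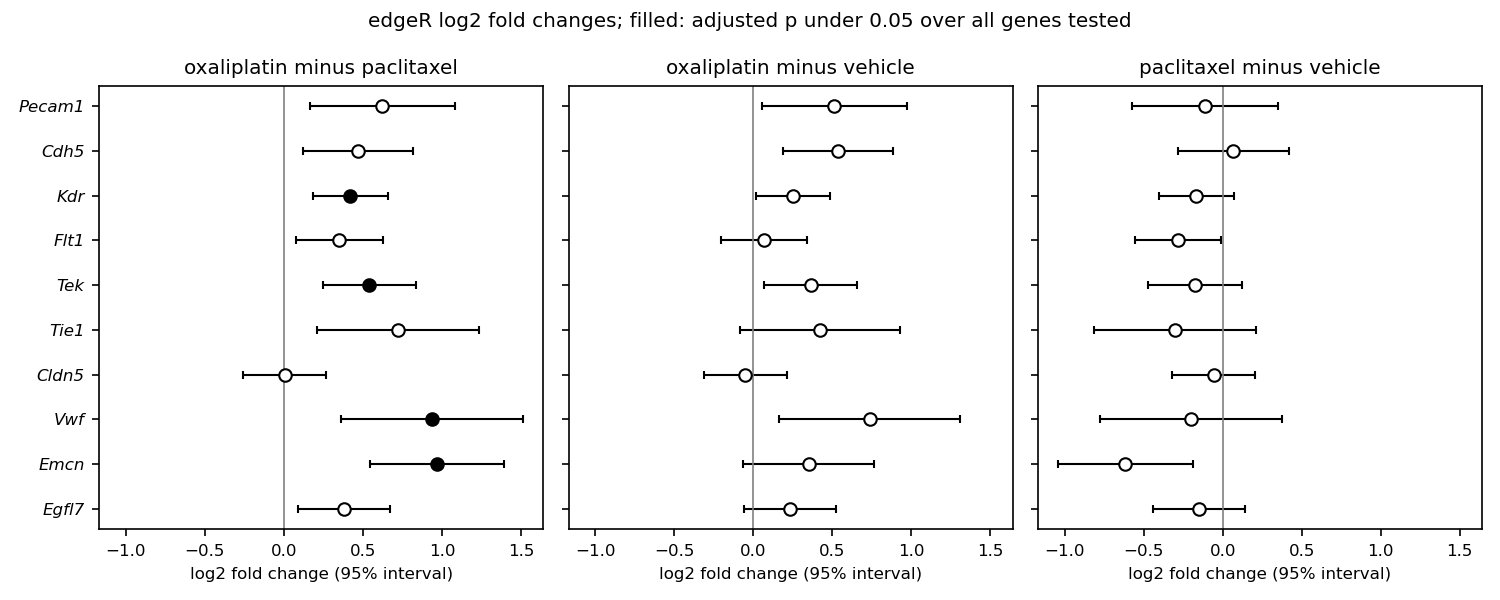
Log2 fold changes with 95% intervals (horizontal axis) of the 10 members for oxaliplatin minus paclitaxel, oxaliplatin minus vehicle and paclitaxel minus vehicle, from edgeR's fit of all 12 libraries. Filled points passed an adjusted p of 0.05 over all genes tested, which Kdr, Tek, Vwf and Emcn did between the drugs and 0 members did against vehicle.

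Against vehicle, 9 of the 10 members had higher means after oxaliplatin, but 0 passed edgeR's test, where 1.76% of all genes tested were called. Unadjusted p-values were under 0.05 for 5 members and for 17.2% of all genes tested. DESeq2 called 1 member, Cdh5, and 5.73% of all genes. Limma called 0 members with quality weights, on log2(FPKM + 1) and on log2(FPKM + 0.1), where it called 3.79%, 2.09% and 1.61% of all genes. The median log2 fold change of the members was 0.36, beside 0.01 for all genes tested. The vehicle libraries are those used in the comparison of paclitaxel with vehicle, so these values are not independent of it. Of all called genes 59.7% were higher after oxaliplatin, or 75% with library totals in place of TMM scaling and 48.2% with DESeq2.

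Vwf averaged 76.0 ± 9.29 CPM in oxaliplatin and 45.6 ± 21.4 CPM in vehicle libraries (SD, n = 4 each), a log2 difference of 0.74 ± 0.26 with an adjusted p of 0.179. Cdh5 averaged 20.1 ± 2.5 against 13.9 ± 2.83 CPM, a difference of 0.54 ± 0.16 (adjusted p = 0.112). Pecam1 differed by 0.51 ± 0.21, Tek by 0.36 ± 0.14 and Kdr by 0.25 ± 0.11, with adjusted p-values of 0.24, 0.194 and 0.253. Every oxaliplatin library exceeded every vehicle library in CPM for 4 members, Cdh5, Kdr, Tek and Vwf, where 5.54% of all genes tested were higher without overlap. The margin was slight for Cdh5, at 16.63 CPM in oxaliplatin 1 against 16.59 CPM in vehicle 1. In FPKM these libraries had 6.53 and 6.55, so the groups overlapped. For Tek the margin was 22.98 CPM in oxaliplatin 4 against 22.89 CPM in vehicle 3. Tie1 (0.42 ± 0.23), Emcn (0.35 ± 0.19), Egfl7 (0.23 ± 0.13) and Flt1 (0.07 ± 0.13) overlapped with vehicle. Cldn5 was 0.05 lower on the log2 scale in oxaliplatin than in vehicle libraries, with an interval of -0.31 to 0.21.

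After paclitaxel, 9 of the 10 members had lower means than in vehicle libraries and 0 passed edgeR's test, where 0.12% of all genes tested were called. The median log2 fold change was -0.17, beside -0.01 for all genes tested. Unadjusted p-values were under 0.05 for 2 members, Emcn and Flt1, a share close to the 17.1% of all genes tested. Limma with quality weights per library called 1 member, Emcn, and 12.8% of all genes, and DESeq2 called 0 members and 1.44% of all genes. No member was without overlap between the groups, where 3.08% of all genes tested were lower without overlap.

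Emcn averaged 13.6 ± 3.28 CPM in paclitaxel and 20.8 ± 5.71 CPM in vehicle libraries, a log2 difference of -0.62 ± 0.20 with an adjusted p of 0.216, and 3 of 4 paclitaxel libraries lay below all vehicle libraries. Left without paclitaxel 4, the highest of its group, the difference was -0.79 with an adjusted p of 0.0319, in a fit that called 10.2% of all genes. Over the 8 fits that left out 1 library it was -0.79 to -0.42, with an adjusted p up to 0.549. Flt1 averaged 25.7 ± 3.52 against 31.3 ± 5.01 CPM, a difference of -0.28 ± 0.13 (adjusted p = 0.282). Tie1, Vwf, Tek, Kdr, Egfl7, Pecam1 and Cldn5 had differences between -0.30 and -0.06, and that of Cdh5 was 0.07 ± 0.16.

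The vehicle group was uneven for these genes. On a score that averages the log2 CPM of the 10 members and subtracts the vehicle mean, the oxaliplatin libraries had 0.43, 0.43, 0.38 and 0.25 and the paclitaxel libraries -0.29, -0.11, -0.25 and -0.02. The vehicle libraries had 0.16, -0.29, 0.35 and -0.22, so vehicle 3 stood among the oxaliplatin libraries and vehicle 2 and 4 among the paclitaxel libraries. Vehicle 3 was the highest of its group for 8 of 10 members, and vehicle 2 the lowest for 6. The coefficient of variation of Pecam1 was 5.55% in oxaliplatin, 13.1% in paclitaxel and 38.1% in vehicle libraries, and that of Tie1 was 18.5%, 14.9% and 39.9%. The score of 12 genes of pericytes and smooth muscle, the contractile cells that wrap vessels, had the same split, at 0.33, -0.23, 0.24 and -0.34 in vehicle 1 to 4.

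Over the 12 libraries 9 of the members varied together and Cldn5 did not. The median Pearson correlation of log2 CPM was 0.75 over the 36 pairs without Cldn5 and -0.09 over the 9 pairs with it, as a description of libraries that share group, depth and dissection. With the mean of the other members, Vwf correlated at 0.90, Tek at 0.87, Tie1 and Emcn at 0.87, Cdh5 at 0.72 and Cldn5 at -0.03. Over all 45 pairs the median was 0.71, and 0.44 when group means were subtracted, so part of the shared variation lay within groups. Among pairs without Cldn5 the lowest was then Egfl7 with Cdh5, at -0.11, so not all of the 9 varied together within groups. The closest pair was Pecam1 and Tie1, at 0.94, and at 0.93 with group means subtracted. Relative to the mean of the other 9 members, Cldn5 stood at 0.47 ± 0.19 on the log2 scale in oxaliplatin, 1.08 ± 0.21 in paclitaxel and 0.94 ± 0.41 in vehicle libraries, and the ranges of the drug groups did not meet.

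**Figure D3:**
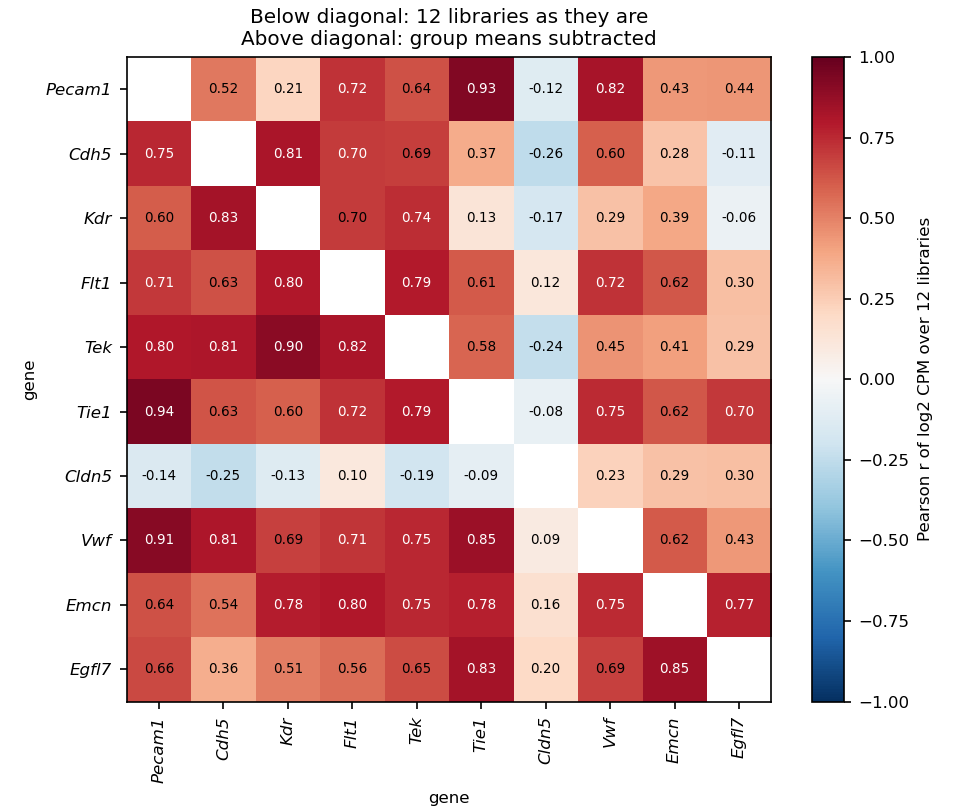
Pearson correlation of log2 CPM between each pair of the 10 genes over 12 libraries, as measured below the diagonal and with group means subtracted above it. The row and column of Cldn5 lie between -0.25 and 0.20 below the diagonal, and 35 of all 45 pairs are above 0.5.

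The genes outside the 10 whose log2 CPM followed the members' mean most closely, among 14251 with a standard symbol, were Tspan11, Rbpms, Tgfbr2, Emp1, C1qtnf7, Atp8b1, Cxcl12, Esam, Bgn and Npr1. Their Pearson correlations with the mean of the members over 12 libraries were 0.94 to 0.98, and 0.86 to 0.97 with group means subtracted. Esam, an adhesion molecule of endothelial tight junctions, had a log2 fold change of 0.48 ± 0.13 for oxaliplatin minus paclitaxel (adjusted p = 0.0294). Tgfbr2, a receptor of TGF-beta, had 0.41 ± 0.09 (adjusted p = 0.0171), and Npr1, the receptor of atrial natriuretic peptide, had 1.01 ± 0.18 (adjusted p = 0.00632). All 10 were called between the drugs, but their choice by likeness to a mean that separates the drug groups largely fixed this, and it supports nothing. Npr1 was also called against vehicle, at 0.79 ± 0.18 (adjusted p = 0.0396). Npr1 and Cxcl12 kept the call between the drugs in all 18 alternative settings, while Esam lost it in 7 (adjusted p up to 0.0934), Tgfbr2 in 2 (up to 0.0573) and the other 6 genes in 4 to 8. The estimated counts of Atp8b1, Cxcl12 and Bgn were not whole in at least 11 libraries, so their values are uncertain.

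The wider VEGF and angiopoietin pathway had 17 genes tested, of which 6 rose after oxaliplatin relative to paclitaxel and 0 fell, with a median log2 fold change of 0.37. They were Flt4, the receptor of VEGF-C, its ligand Vegfc, Angpt1, the ligand that activates Tek, Ptprb, a phosphatase that opposes Tek, Dok2, an adaptor of Tek, and Svep1, an extracellular matrix protein. Angpt1 had 7.68, 9.82, 11.8 and 6.24 CPM in oxaliplatin, 3.63, 3.23, 5.45 and 5.63 CPM in paclitaxel and 7.80, 5.79, 12.5 and 6.08 CPM in vehicle libraries. Paclitaxel libraries were below all others, and the difference between the drugs was 0.99 ± 0.28 (adjusted p = 0.0372). Flt4, which is also a marker of lymphatic endothelium, differed by 0.98 ± 0.22 (adjusted p = 0.0152). The counts of Ptprb were not whole in all 12 libraries, so its value is uncertain. Without single libraries the count was 0 to 6, lowest without paclitaxel 2. For this list and those below, 6.6% of all genes tested were called higher between the drugs and 11.3% in either direction. Those all-gene calls were 571 to 3463 without single libraries, against 1788 as reported. Against vehicle 1.76% of all genes were called after oxaliplatin and 0.12% after paclitaxel.

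Vegfa, the ligand of Kdr and Flt1, did not pass in any comparison. It had 85.5, 76.2, 106.5 and 85.7 CPM in oxaliplatin, 85.3, 68.6, 73.3 and 84.1 CPM in paclitaxel and 96.0, 90.7, 134.0 and 91.0 CPM in vehicle libraries. All 4 paclitaxel libraries lay below all 4 vehicle libraries, with a log2 difference of -0.40 ± 0.14 and an adjusted p of 0.219. Against vehicle 0 of the 17 genes were called for either drug, with medians of 0.14 for oxaliplatin and -0.21 for paclitaxel.

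Of 20 transcription factors of endothelium, 8 rose after oxaliplatin relative to paclitaxel and 0 fell, beside 6.6% of all genes called higher. The median was 0.53. Ets1, an ETS factor of the kind whose core is marked in the sequences above, had 29.3, 27.2, 37.8 and 25.7 CPM in oxaliplatin, 15.4, 19.7, 17.7 and 20.6 CPM in paclitaxel and 20.5, 19.9, 23.1 and 20.6 CPM in vehicle libraries. Every oxaliplatin library was above the other 8, and the difference between the drugs was 0.71 ± 0.13 (adjusted p = 0.00689). Klf4, a factor induced by blood flow in endothelium and present in other cells, differed by 1.14 ± 0.24 (adjusted p = 0.0125), and Erg by 0.84 ± 0.23 (adjusted p = 0.0315). Hhex, Lyl1 and Elk3 also rose, by 0.94, 0.89 and 0.60. The counts of Ets1, Elk3 and Erg were not whole in at least 11 libraries, so their reads may be shared with other genes and their values are uncertain. The calls of Ets1 and Klf4 held in all 18 alternative settings, that of Erg was lost in 6 (adjusted p up to 0.0938), and the count was 2 to 11 without single libraries, lowest without paclitaxel 1, paclitaxel 2 or oxaliplatin 3. Against vehicle 0 of the 20 were called for either drug.

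Further surface genes of endothelium numbered 24, of which 10 rose after oxaliplatin relative to paclitaxel and 0 fell, beside 6.6% of all genes called higher. The median was 0.54. Clec14a, an endothelial C-type lectin, had 15.7, 19.5, 22.7 and 17.6 CPM in oxaliplatin, 8.10, 9.62, 7.34 and 11.4 CPM in paclitaxel and 12.8, 8.59, 13.7 and 9.41 CPM in vehicle libraries. Eng, the TGF-beta co-receptor endoglin, had 58.6, 56.5, 52.7 and 45.4 CPM in oxaliplatin, 33.9, 27.2, 27.4 and 31.7 CPM in paclitaxel and 38.4, 27.1, 42.3 and 24.9 CPM in vehicle libraries. For both genes every oxaliplatin library was above the other 8. Between the drugs Clec14a rose by 1.05 ± 0.18 (adjusted p = 0.00571) and Eng by 0.83 ± 0.15 (adjusted p = 0.00801). Cd34, a sialomucin of endothelium, blood stem cells and some fibroblasts, rose by 1.41 ± 0.27, Acvrl1 by 0.80 ± 0.16 and Cd93 by 0.59 ± 0.12. The counts of Acvrl1 were not whole in all 12 libraries, so its value is uncertain. Cd93 averaged 13.55 CPM in oxaliplatin, 8.98 CPM in paclitaxel and 13.3 CPM in vehicle libraries. Its oxaliplatin mean was thus close to vehicle, and every paclitaxel library lay below every vehicle library. The calls of these 5 genes between the drugs held in all 18 alternative settings. The count for the list was 5 to 14 without single libraries, lowest without oxaliplatin 3.

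Clec14a and Eng were also called against vehicle, the 2 of 24 that were, at 0.76 ± 0.18 (adjusted p = 0.0463) and 0.68 ± 0.15 (adjusted p = 0.0413). Over all genes tested 1.76% were called in that comparison. Clec14a lost that call in 11 of 18 settings, with an adjusted p up to 0.157, and Eng in 8, with an adjusted p up to 0.133. The count for the list was 0 without each of 6 libraries, 1 without oxaliplatin 4 and 5 without vehicle 3. After paclitaxel 0 of the 24 were called against vehicle, with a median of -0.20.

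Few genes of arteries or capillaries were called, at shares near the 11.3% of all genes tested. Among 11 arterial genes 1 rose after oxaliplatin relative to paclitaxel, Cxcl12, by 0.61 ± 0.12 (adjusted p = 0.0107), and the median was 0.11. Among 7 capillary genes 1 rose, Fabp4, a fatty acid carrier that is also a main marker of adipocytes, by 2.67 ± 0.42 (adjusted p = 0.00448), and the median was 0.10. Fabp4 had 16.8, 6.95, 10.2 and 5.56 CPM in oxaliplatin, 0.73, 3.17, 1.30 and 0.99 CPM in paclitaxel and 2.49, 2.16, 2.98 and 2.47 CPM in vehicle libraries. Of 11 adipocyte genes 7 rose between the drugs, with Fabp4 itself counted among them. Against vehicle Fabp4 rose by 1.96 ± 0.40 after oxaliplatin (adjusted p = 0.032), a call lost in 8 of 18 settings (adjusted p up to 0.11). The part of adipocytes in its values was not tested.

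Of 10 genes of veins and activated endothelium, 3 rose after oxaliplatin relative to paclitaxel, beside 6.6% of all genes called higher. The median was 0.47. Icam1, an adhesion molecule for leukocytes, rose by 0.95 ± 0.20 (adjusted p = 0.0131), Sele by 1.59 ± 0.36 (adjusted p = 0.0173) and Ephb4, a receptor of veins, by 0.49 ± 0.14 (adjusted p = 0.0342). Sele, the leukocyte adhesion molecule E-selectin that is made by activated endothelium, had 1.79, 2.36, 1.98 and 2.25 CPM in oxaliplatin, 0.24, 0.70, 0.71 and 1.10 CPM in paclitaxel and 0.58, 0.18, 0.46 and 0.46 CPM in vehicle libraries. It was higher in every oxaliplatin library than in the other 8, and its rise against vehicle was 2.30 ± 0.38 on the log2 scale, with an adjusted p of 0.0114 and of at most 0.05 in 18 alternative settings. Its value was 2.05 to 2.50 without single libraries, and 1.66 on the log2(FPKM + 0.1) and 0.49 on the log2(FPKM + 1) scale, where a low gene's change is understated. Without single libraries the count between the drugs was 1 to 5, lowest without paclitaxel 2 or paclitaxel 3.

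Of 15 genes of the blood-nerve barrier, 3 rose and 1 fell after oxaliplatin relative to paclitaxel, beside 11.3% of all genes called in either direction. The median was 0.02. Tfrc, the transferrin receptor, which is carried by barrier endothelium and by dividing and erythroid cells, had 87.6, 112.8, 114.8 and 95.1 CPM in oxaliplatin, 123.4, 150.7, 168.5 and 167.5 CPM in paclitaxel and 157.1, 141.1, 149.1 and 165.6 CPM in vehicle libraries. Every oxaliplatin library was below the other 8. It fell by 0.57 ± 0.11 on the log2 scale relative to paclitaxel (adjusted p = 0.00979) and by 0.58 ± 0.11 relative to vehicle (adjusted p = 0.0246), the second call being lost in 4 of 18 settings with an adjusted p up to 0.0972. Between the drugs sensory neuron genes had a median of -0.40 and erythroid genes one of 2.32. The part of neurons or of any other cells in the values of Tfrc was not tested. Cav1, of caveolae, rose by 0.53 ± 0.13, Tjp1, the junction scaffold ZO-1, by 0.46 ± 0.12 and Slc38a5, an amino acid carrier, by 1.59 ± 0.46 between the drugs. Slc38a5 had only 0.51 to 1.58 CPM in oxaliplatin and 0.18 to 0.71 CPM in paclitaxel libraries, and lost its call in 9 of 17 settings (adjusted p up to 0.137). Without single libraries the count was 1 to 4.

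The 17 Notch and TGF-beta genes of vessels included 3 that rose between the drugs, Eng, Acvrl1 and Tgfbr2, beside 6.6% of all genes called higher. Eng and Acvrl1 are also counted among the further surface genes above. The median was 0.26, and the count was 2 to 5 without single libraries. Of 10 genes of the vascular basement membrane 5 rose between the drugs, namely Hspg2, Nid2, Lama5, Nid1 and Lamb1, beside 6.6% of all genes called higher. The median was 0.42. Nid1 and Nid2 are uncertain because their counts were not whole in all 12 libraries. Nid1 averaged 327.6 CPM in oxaliplatin, 243.1 CPM in paclitaxel and 320.1 CPM in vehicle libraries, so its oxaliplatin mean was close to vehicle. Hspg2, which encodes perlecan, averaged 640.1 ± 16.4 CPM in oxaliplatin and 434.2 ± 34.1 CPM in paclitaxel libraries, a difference of 0.56 ± 0.12 (adjusted p = 0.0151). Lama5, a laminin chain, was also called against vehicle, at 0.62 ± 0.13 (adjusted p = 0.035), and lost that call in 9 of 18 settings (adjusted p up to 0.121). Without single libraries the count for the basement membrane between the drugs was 0 to 6, lowest without paclitaxel 2. Lists of fibroblasts, pericytes and perineurium also had medians above 0 between the drugs, at 0.81, 0.45 and 0.42. The part of those cells in the basement membrane values was not tested. Against vehicle 0 genes of any of these 9 vessel lists were called after paclitaxel by edgeR.

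Markers of other cells differed between the same libraries. Between the drugs 6.6% of all genes tested were called higher and 11.3% in either direction. Erythroid genes summed to 3043 to 10290 CPM in oxaliplatin, 630.5 to 1779 CPM in paclitaxel and 1433 to 2868 CPM in vehicle libraries, and 11 of 13 tested rose between the drugs, with a median of 2.32. Fibroblast and matrix genes summed to 3810 to 4696 CPM in oxaliplatin, 2300 to 2882 CPM in paclitaxel and 2865 to 4172 CPM in vehicle libraries, with 7 of 12 called higher between the drugs and a median of 0.81. Genes of pericytes and smooth muscle had a median of 0.45, close to the 0.50 of the endothelial members, and 3 of 12 rose, namely Rgs5, Pdgfrb and Cspg4. Macrophage genes rose in 6 of 15 cases, with a median of 0.65, and B cell genes in 8 of 11, with a median of 2.51. Against vehicle 11 of the 15 macrophage genes were lower after oxaliplatin, with 0 called and a median of -0.19. After paclitaxel 15 of 15 were lower than in vehicle libraries, with 2 called and a median of -0.84. Between the drugs sensory neuron genes went the other way, with 9 of 16 lower after oxaliplatin and a median of -0.40. The part of these cells in the differences of the endothelial genes was not tested.

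Of 12 genes of megakaryocytes and platelets, which also make Vwf and Pecam1, 5 passed the filter on low counts. These 5 summed to 23.7 to 33.2 CPM in oxaliplatin, 17.1 to 19.7 CPM in paclitaxel and 22.7 to 26.6 CPM in vehicle libraries. Between the drugs 2 were called higher after oxaliplatin, Pf4 by 1.08 ± 0.25 and Itgb3 by 0.49 ± 0.12, beside 6.6% of all genes tested. Pf4 averaged 7.62 CPM in oxaliplatin, 3.59 CPM in paclitaxel and 4.09 CPM in vehicle libraries. Itgb3 averaged 14.2, 10.1 and 15.3 CPM in the same order, so after oxaliplatin its mean was not above that of vehicle. Ppbp, an abundant platelet gene, was at 0 in all 4 paclitaxel libraries. The part of megakaryocytes and platelets in the values of Vwf and Pecam1 was not tested.

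**Figure D4:**
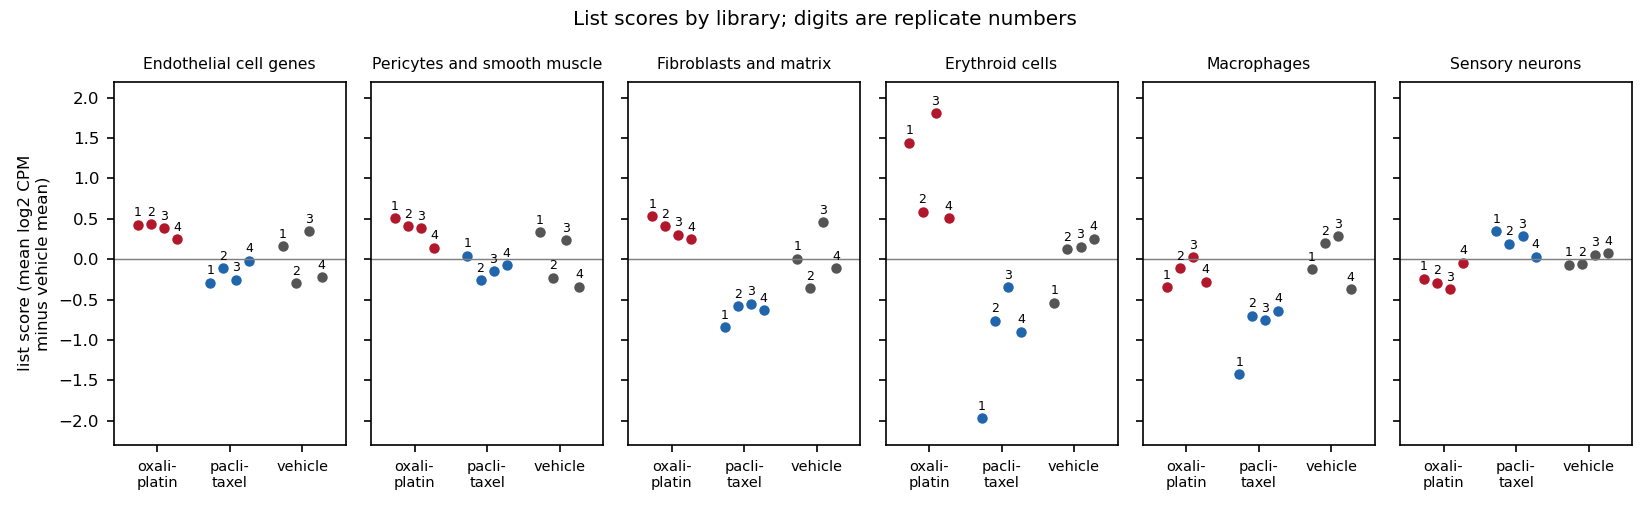
Score per library (vertical axis, mean log2 CPM of a list minus its vehicle mean) for the 10 endothelial cell genes and 5 lists of other cells, with digits for the replicate number. The endothelial scores are 0.25 to 0.43 in oxaliplatin, -0.29 to -0.02 in paclitaxel and -0.29 to 0.35 in vehicle libraries, and the pericyte scores have a like split of the vehicle libraries.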

How the data were processed

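RNA from rat dorsal root ganglia was measured in 12 libraries, grouped by their titles into oxaliplatin, paclitaxel and vehicle. Per the file headers, the authors deposited an expected count and an FPKM value per gene and library. An expected count is an estimated count that need not be whole where reads match several genes. CASAVA 1.4 and Bowtie2 are listed in the submitters' processing notes. The quantification tool, genome build and strand setting are not given in the sources used here.

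After rounding, the counts went into edgeR 4.0.16 (R 4.3.3) with filterByExpr, TMM and 1 robust quasi-likelihood fit of 3 group means over 12 libraries with 9 residual degrees of freedom. Genes that a library's table does not list were set to 0. All p-values are two-sided, and calls were made at a Benjamini-Hochberg adjusted p under 0.05 over 15809 genes. The intervals are 95% intervals of that fit. Named genes with fractional estimated counts in over 6 libraries are pointed out as uncertain. The depth of 17008728 to 17615736 per library gives each member at least 167 counts, and 4 libraries per group set the precision.

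Alternatives were DESeq2 1.42.0, limma 3.58.1 with voom quality weights and on log2(FPKM + 1) and log2(FPKM + 0.1), other scaling and filters, a fit of 2 groups, a replicate block and each library left out. The 10 members, the lists and the naming rule were chosen with earlier results of these data known. The rule names all members, up to 6 called genes of each vessel list or otherwise the 2 with the smallest p, up to 2 of the most abundant genes of each other cell type, and the 10 genes closest to the members' mean. Cell type markers named beyond that rule were chosen after their values were seen. Sequences are from RefSeq, build GRCr8, which may differ from the build behind the counts.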

Additional observations from a re-analysis of the deposited data

Results flagged for a closer look

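A single library stood far from the other 3 of its group for 2 of 30 sets of values, that is 10 members in 3 groups, where chance alone flags about 1 set in 20. Tek had 12.64 CPM in paclitaxel 1, against 17.6 to 18.6 CPM in the other paclitaxel libraries. The gap was 0.832 of the group's range. Without paclitaxel 1 the difference of Tek between oxaliplatin and paclitaxel was 0.43 on the log2 scale with an adjusted p of 0.0643. Egfl7 had 26.15 CPM in vehicle 3, against 18.8 to 20.1 CPM in the other vehicle libraries, with a gap of 0.833 of the range. Vehicle 3 was also the highest of its group for 8 of the 10 members.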

How the results depend on the processing

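Of 540 values of the members recomputed under other settings 484 kept their direction and their side of the threshold, 20 lost a call, 19 gained one and 17 changed sign. The values that changed sign were those of Cldn5, Flt1, Cdh5, Pecam1 and Vwf given next. For oxaliplatin minus paclitaxel Cldn5 was -0.012 with DESeq2, -0.010 with its size factors in edgeR, -0.0037 with no filter and -0.011 with the replicate block, and -0.077 to 0.10 without single libraries. Without single libraries Cldn5 was -0.13 to 0.038 for oxaliplatin minus vehicle and -0.13 to 0.0037 for paclitaxel minus vehicle, and Flt1 was -0.017 to 0.14 for oxaliplatin minus vehicle. For paclitaxel minus vehicle without single libraries Cdh5 was -0.046 to 0.17, Pecam1 -0.31 to 0.10 and Vwf -0.39 to 0.051, with Pecam1 and Vwf above 0 without vehicle 3.

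The number of members called for oxaliplatin minus paclitaxel was 4 as reported, 8 by limma with quality weights, 6 by DESeq2, by limma on either FPKM scale and with library totals, 5 with 2 groups in the fit, 3 with no filter and 1 to 4 without single libraries. Over all genes the calls were 1788 as reported, 4726 by limma with quality weights and 2782 by DESeq2. They were 1784 on log2(FPKM + 1), 1719 on log2(FPKM + 0.1), 1792 with library totals, 1016 with 2 groups and 1586 with no filter. For oxaliplatin minus vehicle the number of members called was 1 by DESeq2 (Cdh5, adjusted p = 0.0451) and 0 without any single library. For paclitaxel minus vehicle it was 1 by limma with quality weights (Emcn, -0.69, adjusted p = 0.0311) and 0 to 1 without single libraries. The cause of these differences was not tested.

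Replicate numbers did not pair the libraries: deviations of same-numbered libraries correlated at -0.23 to 0.16, with 1 of 12 pairs over 0.1. In 5 of 24 comparisons a library correlated best with its own number. With the replicate block 3 members were called for oxaliplatin minus paclitaxel, where Vwf had an adjusted p of 0.0725, and 0 in either comparison with vehicle. Over all genes the calls with the block were 986, 72 and 15 for oxaliplatin minus paclitaxel, oxaliplatin minus vehicle and paclitaxel minus vehicle, against 1788, 278 and 19 without it. In the same order they were 2782, 904 and 238 by DESeq2, 4726, 599 and 2017 by limma with quality weights and 1016, 161 and 21 with 2 groups in the fit. Without single libraries they were 571 to 3463, 49 to 242 and 10 to 1631, the highest for paclitaxel being without paclitaxel 4. Of 845 recomputed values of other named genes 649 kept their call, 196 lost it and 0 changed sign.

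In every library each member had at least 167 estimated counts. Sele, at 0.24 to 1.10 CPM in paclitaxel and 0.18 to 0.58 CPM in vehicle libraries, and Slc38a5 rest on few counts there.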

Other observations

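Lymphatic endothelium and the perineurium, the sheath around nerve bundles, differed between the drugs as well. Over all genes tested 6.6% were called higher in this comparison. Of 7 lymphatic genes 2 rose after oxaliplatin relative to paclitaxel, Lyve1 by 1.18 ± 0.18 (edgeR adjusted p = 0.00402) and Flt4 by 0.98 ± 0.22 (edgeR adjusted p = 0.0152), with a median of 0.86. Of 5 perineurial genes 2 rose, Krt19 by 1.03 ± 0.18 and Itgb4 by 0.44 ± 0.10, with a median of 0.42. Both were also called against vehicle, at 0.95 ± 0.18 and 0.46 ± 0.10. Lyve1 is also carried by some macrophages, of whose 15 genes 6 rose between the drugs, and Krt19 and Itgb4 are also genes of other epithelia. The counts of Lyve1 were not whole in all 12 libraries, so its value is uncertain. These genes were chosen after their values were seen. After paclitaxel 0 genes of either list were called against vehicle by edgeR, with medians of -0.27 and 0.02.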
